A study of Mus musculus with 30 samples.

Results

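The genes *Pdgfra*, *Dcn*, *Lum*, *Dpt*, *Pi16*, *Gsn*, *Dpp4*, *Tcf7l2* and *Mfap5* mark the fibroblasts of mouse muscle and other organs. They were taken by symbol from a table of RNA-seq read counts, where they are 9 of 36103 genes, and were followed in gastrocnemius, diaphragm and heart by genotype. The mice were males without *Mtm1*, the X-linked gene of the lipid phosphatase myotubularin whose loss causes X-linked centronuclear myopathy, together with their wild-type (WT) littermates. All animals were 5 weeks old and of the pure 129Pas strain, and the labels name no other allele and no treatment in either genotype. The groups held 4 WT and 4 *Mtm1*-/y libraries of gastrocnemius, 4 WT and 3 *Mtm1*-/y libraries of diaphragm, and 4 WT and 4 *Mtm1*-/y libraries of heart. Liver, with 3 WT and 4 *Mtm1*-/y libraries, is used as a reference tissue. RNA came from whole pieces of tissue, so each value averages over every cell type present.

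Fibroblasts lie between muscle fibres and around vessels and nerves, where they make and remodel the collagen-rich extracellular matrix. In skeletal muscle most of them are fibro-adipogenic progenitors, which carry PDGFRα, support muscle stem cells during repair, and can give rise to matrix-producing myofibroblasts or to adipocytes. Among them, a *Pi16*- and *Dpp4*-positive population sits around larger vessels and in the fascia and is regarded as a reservoir for other fibroblasts.

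By their products, the 9 genes fall into several kinds. *Pdgfra* encodes a receptor tyrosine kinase for platelet-derived growth factors, and *Dpp4* a membrane peptidase. *Dcn* and *Lum* encode decorin and lumican, small leucine-rich proteoglycans that bind collagen fibrils. *Dpt* encodes dermatopontin, which binds decorin and collagen, and *Mfap5* a microfibril-associated glycoprotein that binds fibrillin. *Pi16* encodes a peptidase inhibitor, *Gsn* the actin-severing protein gelsolin, and *Tcf7l2* a transcription factor of the Wnt pathway that is also known as TCF4. *Dcn* and *Lum* lie next to each other in the same orientation on chromosome 10, 46984 bases apart (GRCm38). *Gsn* and *Tcf7l2* are not confined to fibroblasts, since smooth muscle and mesothelium also make gelsolin and liver cells use *Tcf7l2*, and *Dpp4* is abundant in liver.

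Of the 9 genes, 6 had promoter sequences in the RefSeq table used here (GRCm38.p6), with 9 start sites among them: *Pdgfra*, *Dpt*, *Pi16*, *Gsn*, *Dpp4* and *Tcf7l2*. The 4 shown are those of genes that rose together in the *Mtm1*-/y gastrocnemius. Each runs from 250 bases before to 50 bases after an annotated start, on the plus strand, at chr5:75152001-75152300 for *Pdgfra*, chr1:164796413-164796712 for *Dpt*, chr17:29318632-29318931 for *Pi16* and chr19:55741560-55741859 for the upstream start of *Tcf7l2*.
Pdgfra: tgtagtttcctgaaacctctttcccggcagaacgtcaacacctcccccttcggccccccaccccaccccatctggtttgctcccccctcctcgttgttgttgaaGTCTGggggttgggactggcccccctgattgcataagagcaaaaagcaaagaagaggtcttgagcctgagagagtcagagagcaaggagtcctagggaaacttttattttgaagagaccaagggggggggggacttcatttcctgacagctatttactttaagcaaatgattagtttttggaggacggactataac
Dpt: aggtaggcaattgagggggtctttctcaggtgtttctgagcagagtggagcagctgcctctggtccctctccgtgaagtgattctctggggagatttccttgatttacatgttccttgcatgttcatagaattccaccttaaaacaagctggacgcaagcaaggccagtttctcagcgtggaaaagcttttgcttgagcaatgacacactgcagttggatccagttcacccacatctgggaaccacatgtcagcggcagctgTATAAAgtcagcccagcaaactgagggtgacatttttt
Pi16: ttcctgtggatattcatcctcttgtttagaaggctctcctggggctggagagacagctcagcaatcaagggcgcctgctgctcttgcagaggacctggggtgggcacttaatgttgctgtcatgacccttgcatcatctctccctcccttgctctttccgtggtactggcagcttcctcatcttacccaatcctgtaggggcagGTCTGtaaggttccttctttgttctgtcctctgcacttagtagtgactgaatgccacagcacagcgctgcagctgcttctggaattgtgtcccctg
Tcf7l2: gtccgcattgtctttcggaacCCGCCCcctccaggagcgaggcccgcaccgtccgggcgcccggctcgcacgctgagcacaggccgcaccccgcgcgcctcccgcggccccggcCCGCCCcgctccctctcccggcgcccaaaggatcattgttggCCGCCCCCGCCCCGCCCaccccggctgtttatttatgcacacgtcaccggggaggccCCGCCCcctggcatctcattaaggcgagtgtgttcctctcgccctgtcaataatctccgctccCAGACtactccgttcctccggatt
Capitals mark matches, on either strand, to 5 short motifs. The TATA box was searched as TATAAA and was in 13.6% of all 32851 promoters of this length in the table. The motif of the factor AP-1 was searched as TGANTCA and was in 7.81% of them. That of the TEAD factors, bound by YAP and TAZ, was searched as GGAATG and was in 14.7%. The GC box, bound by SP1, was searched as GGGCGG and was in 35.7%, and the SMAD-binding core was searched as CAGAC and was in 49.6%. *Pdgfra* and *Pi16* each held 1 SMAD core, *Dpt* held 1 TATA box after its start, and *Tcf7l2* held 6 GC boxes and 1 SMAD core. Different motifs did not overlap. No motif was in all 4 windows, and the AP-1 letters were in none of the 9 windows of the 6 genes. A match describes letters only.

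The libraries held 24873817 to 44289343 counted reads each. Levels are given in CPM, the count of a gene scaled to library size, with library sizes corrected by the trimmed mean of M values. The targeted gene *Mtm1* stood at 15.8 to 26.9 CPM in the 15 WT libraries and at 3.49 to 8.19 CPM in the 15 *Mtm1*-/y libraries, so the labels and the gene went together. The tissues carried their own markers: 8 myofibre genes summed to at least 47910 CPM in each gastrocnemius and diaphragm library, 8 cardiomyocyte genes to at least 47556 CPM in each heart library, and 12 hepatocyte genes to at least 189064 CPM in each liver library. Every fibroblast marker was detected in all 23 muscle and heart libraries, with the lowest count, 114 reads, for *Dpp4* and the next lowest, 167 reads, for *Tcf7l2*. Some libraries stood apart from their group. In diaphragm, 4 of 7 libraries carried 15522 to 28292 CPM of *Alb*, the hepatocyte gene for albumin, against 251 to 1449 CPM in the other 3. Heart WT replicate 4 had a summed level of 9 mesothelial markers of 418 CPM, against 77.9 to 164 CPM in the other WT hearts and 49.97 to 201 CPM in the *Mtm1*-/y hearts.

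In gastrocnemius, 6 of the 9 fibroblast markers rose in *Mtm1*-/y mice: *Mfap5*, *Lum*, *Pi16*, *Pdgfra*, *Dpt* and *Tcf7l2*. None fell, and *Gsn*, *Dcn* and *Dpp4* did not pass the test. Differences were called by edgeR's quasi-likelihood test with Benjamini-Hochberg adjustment at 0.05, by which 14.1% of the 15456 genes tested were higher and 14.9% lower in *Mtm1*-/y gastrocnemius. The median log2 fold change of the 9 genes was 0.45, against 0.016 over all genes tested. DESeq2 called the 6 genes too, with 12.5% of its genes higher and 13.4% lower. A fit of all 30 libraries by edgeR called only *Mfap5* and *Lum* (adjusted p = 0.15 for *Pdgfra*, 0.59 for *Dpt*, 0.28 for *Pi16* and 0.098 for *Tcf7l2*). With a replicate block *Pdgfra* (adjusted p = 0.082) and *Dpt* (0.058) lost their calls, and with no filter on low counts *Tcf7l2* did (0.084). The share of all genes that passed in these alternative edgeR fits was not counted. Here and in the other comparisons, more (or fewer) fibroblasts and more (or less) of the RNA per fibroblast cannot be told apart, since whole tissue was sequenced.

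*Mfap5* (chr6:122505845-122529290, plus strand, GRCm38) had the largest change of the 9. Its level was 34.5, 26.3, 35.5 and 23.2 CPM in WT gastrocnemius 1 to 4 and 94.6, 70.9, 86.2 and 65.0 CPM in *Mtm1*-/y gastrocnemius 1 to 4. Every *Mtm1*-/y library lay above every WT library, and the lowest *Mtm1*-/y value was well above the highest WT value. The fold change was 2.67 (log2 1.42, SE 0.17, adjusted p = 0.00042 by edgeR). In gastrocnemius *Mfap5* was the only one of the 9 that also passed the study's threshold of an absolute log2 fold change over 1. By edgeR, 4.84% of all genes tested were past it in the same direction. The study set this threshold on DESeq2 results.

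*Lum* (chr10:97565128-97572703, plus strand) stood at 45.4, 38.9, 45.6 and 32.9 CPM in the 4 WT libraries and at 81.4, 90.5, 65.1 and 82.7 CPM in the 4 *Mtm1*-/y libraries. Again the groups did not overlap. The fold change was 1.98 (log2 0.98, SE 0.13, adjusted p = 0.00066 by edgeR). *Dcn*, its neighbour and a proteoglycan of the same family, did not pass: it was at 385, 436, 651 and 389 CPM in WT and 436, 508, 469 and 755 CPM in *Mtm1*-/y libraries. The *Dcn* groups overlapped, with WT 3 and *Mtm1*-/y 4 well above the others in their groups (log2 0.23, SE 0.21, adjusted p = 0.44 by edgeR). These libraries were also the highest of their groups in the summed level of 7 tenocyte markers, at 992 CPM in WT 3 against 176 to 386 CPM in the other WT libraries, and at 1191 CPM in *Mtm1*-/y 4 against 396 to 529 CPM in the other *Mtm1*-/y libraries. The part of tendon in the *Dcn* level was not tested.

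*Pdgfra* read 30.8, 30.2, 33.1 and 24.1 CPM in WT and 33.5, 41.8, 36.8 and 51.4 CPM in *Mtm1*-/y gastrocnemius. The lowest *Mtm1*-/y library was just above the highest WT library, so the groups were separate (fold 1.39, log2 0.48, SE 0.14, adjusted p = 0.032 by edgeR). *Mfap5*, *Lum* and *Pdgfra* were the 3 markers whose groups did not overlap, and 13.9% of all genes tested had every *Mtm1*-/y library above every WT library, with 16.7% below.

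*Pi16* was at 40.1, 27.5, 46.0 and 34.1 CPM in WT and 68.0, 51.5, 43.2 and 62.7 CPM in *Mtm1*-/y gastrocnemius (log2 0.62, SE 0.18, adjusted p = 0.026 by edgeR). Only *Mtm1*-/y 3 lay inside the WT range, below WT 3. *Dpt* was at 65.6, 56.1, 73.4 and 58.3 CPM in WT and 79.1, 102, 72.8 and 89.5 CPM in *Mtm1*-/y libraries (log2 0.45, SE 0.12, adjusted p = 0.019 by edgeR). Here too *Mtm1*-/y 3 alone was inside the WT range, level with WT 3. *Tcf7l2* was low throughout, at 5.04, 6.87, 5.61 and 5.95 CPM in WT and 6.49, 8.01, 7.91 and 8.14 CPM in *Mtm1*-/y libraries (log2 0.39, SE 0.13, adjusted p = 0.040 by edgeR). The *Mtm1*-/y 1 library was below WT 2 and the other 3 were above every WT library.

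*Gsn* spanned 686 to 901 CPM in WT and 735 to 1324 CPM in *Mtm1*-/y gastrocnemius (log2 0.38, SE 0.17, adjusted p = 0.12 by edgeR). *Dpp4* spanned 4.27 to 8.85 CPM in WT and 4.57 to 6.98 CPM in *Mtm1*-/y gastrocnemius, or −0.12 on the log2 scale (SE 0.24, adjusted p = 0.73 by edgeR). *Pi16*, which marks the same population as *Dpp4*, passed while *Dpp4* did not, and the difference between them was not tested.

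*Mfap5* and *Lum* passed the test whichever library was left out, with adjusted p of at most 0.0026 and 0.0038 by edgeR. The other 4 depended on single libraries. Only 3 of the 9 genes passed without WT gastrocnemius 2, 2 without WT gastrocnemius 4, and 3 without *Mtm1*-/y gastrocnemius 4. Across the 8 such fits *Tcf7l2* lost its call in 6, *Pdgfra* in 5, *Pi16* in 4 and *Dpt* in 2, always with the same direction. How many of all genes passed in each of these fits was not counted. A loss of calls particular to the markers therefore cannot be told from a general one.

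**Figure D1:**
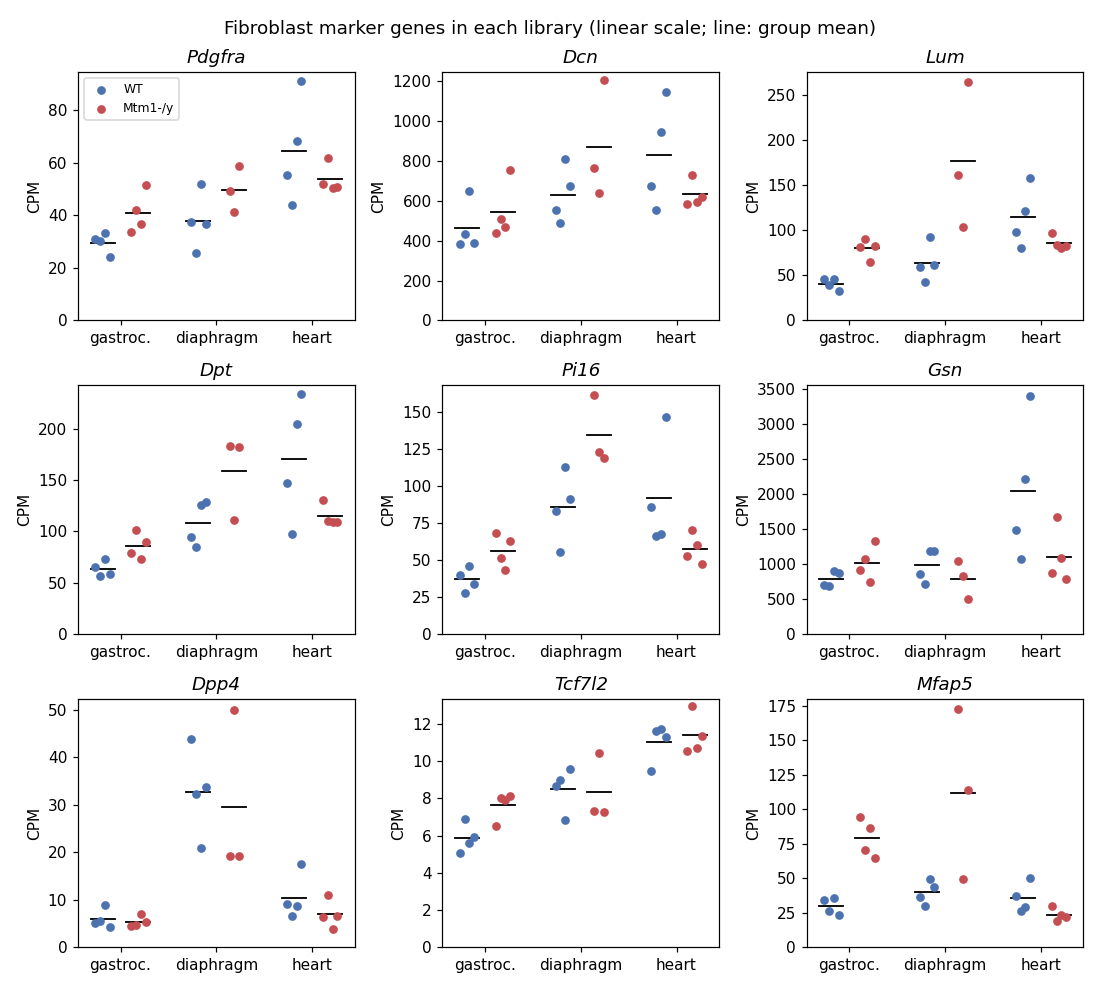
Level of each fibroblast marker in each library, in CPM on a linear axis, for WT (blue) and *Mtm1*-/y (red) gastrocnemius, diaphragm and heart. Points are libraries and lines group means. In gastrocnemius the groups are separate for *Mfap5*, *Lum* and *Pdgfra*, in diaphragm for *Lum* and *Pi16*, and in heart for none of the 9.

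In diaphragm, none of the 9 genes passed edgeR's test, by which 0% of the 16796 genes tested were higher and 0.0119% lower in *Mtm1*-/y mice. *Lum* and *Mfap5* had the highest estimates, both above those in gastrocnemius, but with larger standard errors. At an unadjusted p under 0.05, 4 were higher (*Lum*, *Mfap5*, *Pi16* and *Dpt*), as were 6.58% of all genes tested, and none was lower, against 4.17% of them. DESeq2 called 2, *Lum* (log2 1.497, adjusted p = 0.0054) and *Mfap5* (log2 1.52, adjusted p = 0.0095), with 1.72% of its genes called higher and 0.675% lower. Both estimates were also over the study's log2 threshold of 1. A fit of all 30 libraries by edgeR called *Lum* alone of the 9 in diaphragm (log2 1.46, adjusted p = 0.011), with the share of all genes not counted. The median log2 fold change of the 9 genes was 0.48, against −0.011 over all genes tested.

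*Lum* was at 59.4, 42.3, 92.8 and 61.7 CPM in WT diaphragm 1 to 4 and at 161, 104 and 264 CPM in *Mtm1*-/y diaphragm 1, 2 and 4. All *Mtm1*-/y libraries were above all WT libraries, with *Mtm1*-/y 2 the nearest to them. The fold was 2.78 (log2 1.48, SE 0.37, adjusted p = 0.28 by edgeR). *Mfap5* was at 36.3, 30.2, 49.6 and 44.0 CPM in WT and 172, 49.5 and 114 CPM in *Mtm1*-/y diaphragm. The *Mtm1*-/y 2 library was level with WT 3, and *Mtm1*-/y 1 and *Mtm1*-/y 4 were far above every WT library (log2 1.497, SE 0.39, adjusted p = 0.29 by edgeR). Without *Mtm1*-/y diaphragm 2, *Mfap5* passed, at log2 1.85 and an adjusted p of 0.043 by edgeR.

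*Pi16* was at 83.0, 55.5, 113 and 91.0 CPM in WT and 162, 123 and 119 CPM in *Mtm1*-/y diaphragm. Every *Mtm1*-/y library was above every WT library, by a narrow margin over WT 3 (log2 0.67, SE 0.25, adjusted p = 0.41 by edgeR). *Lum* and *Pi16* were the markers whose groups did not overlap, both higher in *Mtm1*-/y, against 4.41% of all genes tested, with 5.54% lower throughout. *Dpt* was at 94.7, 84.8, 125 and 128 CPM in WT and 183, 111 and 182 CPM in *Mtm1*-/y libraries, with *Mtm1*-/y 2 inside the WT range (log2 0.57, SE 0.23, adjusted p = 0.45 by edgeR). *Dcn* (log2 0.48, SE 0.28), *Pdgfra* (log2 0.41, SE 0.24) and *Gsn* (log2 −0.30, SE 0.31) had overlapping groups.

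In diaphragm the levels of *Dpp4* and *Tcf7l2* went with that of *Alb*. *Dpp4*, at 148 to 174 CPM in WT liver, was at 43.8, 32.3, 21.0 and 33.7 CPM in WT and 19.3, 49.99 and 19.3 CPM in *Mtm1*-/y diaphragm. The 4 libraries with high *Alb* were the 4 highest for *Dpp4*. They were also the 4 highest for *Tcf7l2*, at 8.66 to 10.4 CPM against 6.83 to 7.31 CPM in the others. At each library's *Alb* level relative to WT liver, liver RNA at that share would carry 30.2, 20.6, 0.33 and 21.98 CPM of *Dpp4* in WT 1 to 4 and 1.92, 37.6 and 0.64 CPM in *Mtm1*-/y 1, 2 and 4. For *Tcf7l2* the same reckoning gave at most 5.06 of 10.4 CPM, in *Mtm1*-/y 2. For each of the other 7 genes it gave at most 6.19% of the measured level in any library, the highest being 39.7 of 642 CPM for *Dcn* in *Mtm1*-/y 2. The next gene was *Lum*, with 2.65 of 59.4 CPM in WT 1. The carried level was only subtracted, and the rest was not scaled up for a liver share of up to 23.3% by *Alb* (*Mtm1*-/y 2). Any liver RNA would thus leave the remaining levels understated where *Alb* was high. On this unscaled reckoning, the ranges of *Pdgfra*, *Dcn* and *Mfap5* did not overlap between libraries with little and with high *Alb*. How many of all genes do the same was not counted. *Pdgfra* was at 49.0 to 58.7 CPM in the libraries with little *Alb* and 24.8 to 39.8 CPM in those with high *Alb*. The same ranges were 762 to 1206 and 465 to 650 CPM for *Dcn*, and 49.64 to 172 and 30.2 to 49.51 CPM for *Mfap5*. For *Lum*, *Dpt*, *Pi16* and *Gsn* the ranges overlapped. Whether liver RNA was present in these libraries, and its part in the levels, was not tested.

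Of the 3 libraries with little *Alb*, 2 were *Mtm1*-/y libraries, so *Alb* and genotype were not balanced. With the log2 *Alb* level of each library as a covariate, added after the data were seen, the log2 fold change of *Lum* was 1.24 (adjusted p = 0.070 by edgeR) and that of *Mfap5* 1.26 (adjusted p = 0.155). None of the 9 genes passed in this fit, in which 9 genes were higher and 7 lower of 16796. The tenocyte markers summed to 73.7 to 252 CPM in WT and 242 to 823 CPM in *Mtm1*-/y diaphragm, with *Mtm1*-/y 1 and *Mtm1*-/y 4, the libraries highest in *Mfap5* and *Lum*, at 710.1 and 823 CPM. Their part in the result was not tested.

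**Figure D2:**
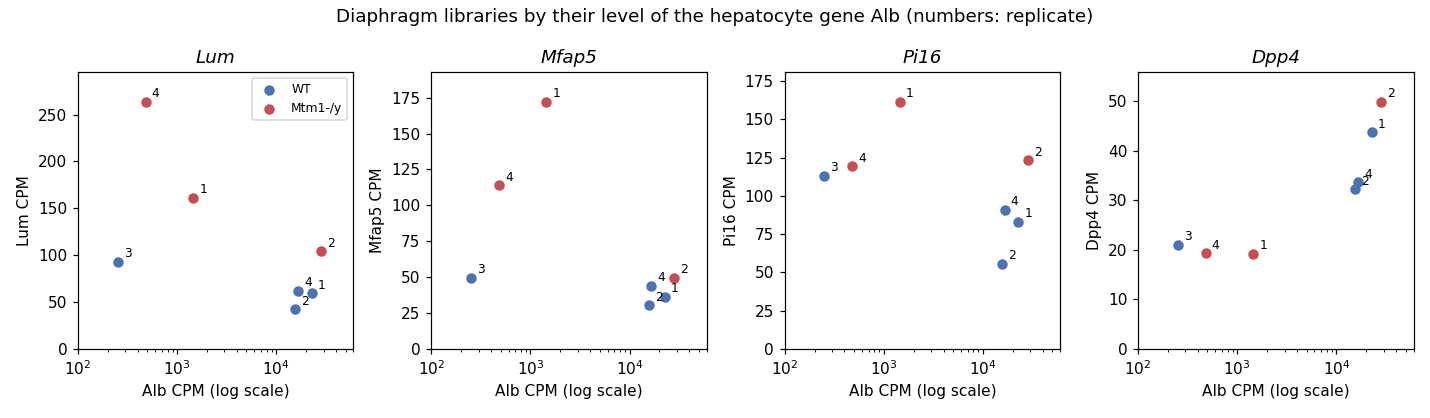
Level of *Lum*, *Mfap5*, *Pi16* and *Dpp4* (CPM, linear axis) in each diaphragm library against its *Alb* level (CPM, log axis), with WT in blue, *Mtm1*-/y in red and the replicate number beside each point. *Dpp4* is highest in the 4 libraries with high *Alb*, while *Mtm1*-/y libraries 1 and 4, with little *Alb*, are highest in *Lum*.

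In heart, none of the 9 genes passed edgeR's test either, with 0% of the 15238 genes tested higher and 0.00656% lower, and DESeq2 called none, with 0.102% of its genes higher and 0.359% lower. *Pi16*, *Mfap5*, *Dpt* and *Gsn* were lower and none was higher at an unadjusted p under 0.05, while 5.83% of all genes tested were lower and 3.05% higher. The groups overlapped for all 9, where 2.15% of all genes tested were higher and 2.03% lower throughout. Adjusted p-values ran from 0.55 to 0.88 by edgeR. Of the log2 fold changes, 8 were below 0, and the median was −0.58, against −0.0016 over all genes tested.

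*Gsn* was at 1480, 1068, 2209 and 3401 CPM in WT heart 1 to 4 and at 875, 1671, 1083 and 779 CPM in *Mtm1*-/y heart 1 to 4. The WT 4 library was far above all others, and the groups overlapped (log2 −0.90, SE 0.37). *Pi16* was at 86.2, 66.4, 67.5 and 147 CPM in WT and 52.8, 70.1, 60.3 and 47.6 CPM in *Mtm1*-/y heart (log2 −0.68, SE 0.26). Again WT 4 was the highest, some way above the other 7, whose ranges overlapped. *Mfap5* was at 37.5, 26.6, 29.2 and 50.1 CPM in WT and 29.8, 19.3, 23.8 and 22.3 CPM in *Mtm1*-/y heart (log2 −0.60, SE 0.21), and *Dpt* at 147, 97.2, 205 and 233 CPM in WT and 130.4, 110.3, 109 and 109 CPM in *Mtm1*-/y heart (log2 −0.58, SE 0.24). For *Mfap5* only *Mtm1*-/y heart 1 lay inside the WT range, and for *Dpt* all 4 *Mtm1*-/y hearts did.

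*Lum* ranged over 80.1 to 158 CPM among WT hearts and 80.8 to 96.4 CPM among *Mtm1*-/y hearts, and *Dcn* over 557 to 1149 CPM and 583 to 733 CPM. *Pdgfra* spanned 43.8 to 91.1 CPM in WT and 50.2 to 61.9 CPM in *Mtm1*-/y hearts (log2 −0.28, SE 0.20). *Tcf7l2* was nearly level, at 9.46 to 11.7 CPM in WT and 10.5 to 12.9 CPM in *Mtm1*-/y hearts (log2 0.040, SE 0.10).

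Heart WT 4, the library high in mesothelial markers, was the highest of the WT hearts in 8 of the 9 genes, all but *Tcf7l2*. Without it the median log2 fold change of the 9 genes was −0.22, that of *Gsn* −0.53, *Mfap5* −0.39, *Pi16* −0.35 and *Pdgfra* −0.059, with none past the test. How many of all genes were highest in heart WT 4 was not counted, and the part of mesothelium in these levels was not tested.

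**Figure D3:**
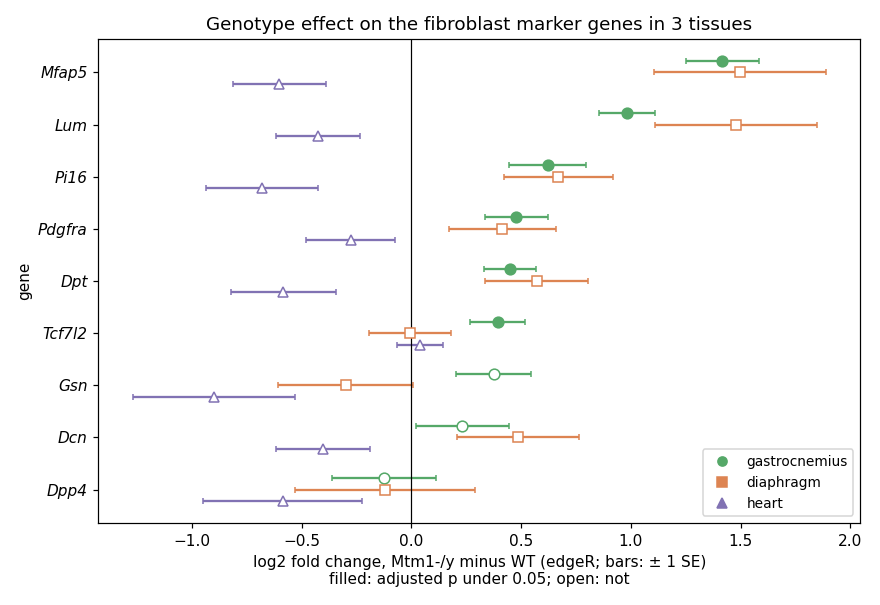
Log2 fold change, *Mtm1*-/y minus WT, of the 9 genes in gastrocnemius (circles), diaphragm (squares) and heart (triangles), with bars of 1 SE, filled where the adjusted p by edgeR was under 0.05. The 6 filled symbols are all in gastrocnemius, and 8 of 9 heart estimates lie below 0.

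The genotype effects in gastrocnemius and heart were compared directly by an interaction term in 1 model of both tissues. The effect differed for 4 genes, lower in heart each time, as for 9.89% of the 16627 genes tested, with 9.94% higher in heart: *Mfap5* (difference −2.001, SE 0.29, adjusted p = 0.00051 by edgeR), *Lum* (−1.39, SE 0.24, adjusted p = 0.0016), *Pi16* (−1.28, SE 0.33, adjusted p = 0.016) and *Dpt* (−1.01, SE 0.28, adjusted p = 0.022). *Gsn* (−1.26, adjusted p = 0.054) and *Pdgfra* (−0.74, adjusted p = 0.060) did not pass, nor did *Dcn*, *Dpp4* and *Tcf7l2*. Without heart WT 4 the number was again 4. DESeq2 called 5, *Gsn* among them (adjusted p = 0.028), with 9.12% of its genes lower and 13% higher in heart. By edgeR, *Gsn* passed in 4 and *Pdgfra* in 2 of the 16 fits without a single library. Between heart and diaphragm none differed by edgeR, with 0% of 17466 genes lower and 0.00573% higher in heart, although *Mfap5* (−2.08, SE 0.46, adjusted p = 0.18 by edgeR) and *Lum* (−1.89, SE 0.42, adjusted p = 0.18) had the largest differences. For these, DESeq2 gave adjusted p-values under 0.05, with 1% of its genes lower and 0.236% higher in heart, as did edgeR without *Mtm1*-/y diaphragm 2. At an unadjusted p under 0.05, 5 of the 9 genes were lower in heart, against 6.73% of all genes tested, and none was higher, against 3.87%. Between gastrocnemius and diaphragm none differed, by edgeR, by DESeq2 or at an unadjusted p under 0.05, with 0.166% of 17509 genes higher and 0.114% lower in gastrocnemius by edgeR, 0.855% and 1.19% by DESeq2, and 7.02% and 5.83% at the unadjusted p. The interval of that difference was wide: for *Mfap5* it was −0.074 with an SE of 0.43.

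To see whether markers kept their proportions, each was divided by *Pdgfra* in the same library, on a log2 scale, an analysis added after the data were seen. In gastrocnemius the ratio for *Lum* was 0.46 ± 0.078 (SD, n = 4) in WT and 0.98 ± 0.27 (SD, n = 4) in *Mtm1*-/y, and that for *Mfap5* was 0.0015 ± 0.16 (SD, n = 4) and 0.96 ± 0.51 (SD, n = 4). Neither overlapped between genotypes, against 2.59% of all genes tested with higher and 36.3% with lower ratios throughout. The ratios of the other 6 genes overlapped. That is, *Dpt*, *Pi16*, *Tcf7l2*, *Gsn*, *Dcn* and *Dpp4* were not separated between genotypes once set against *Pdgfra*.

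In diaphragm the log2 ratio of *Lum* was 0.75 ± 0.073 (SD, n = 4) in WT and 1.74 ± 0.42 (SD, n = 3) in *Mtm1*-/y libraries, again without overlap, against 0.81% of all genes tested. For *Mfap5* the groups touched, with a highest WT ratio of 0.26 and a lowest *Mtm1*-/y ratio of 0.26, in *Mtm1*-/y 2. For *Gsn* the log2 ratio was 4.51 to 5.01 in WT and 4.40, 4.31 and 3.10 in *Mtm1*-/y diaphragm 1, 2 and 4. It was the only marker with a lower ratio throughout, which is near the share of all genes tested, 14.2%. Only *Mtm1*-/y 4 was far below the WT range. In heart no ratio was separated between genotypes, against 0.597% of all genes tested with higher and 0.879% with lower ratios throughout. The ratio of *Lum* was 0.79 to 0.87 in the 4 WT hearts, WT 4 included, so *Lum* and *Pdgfra* were high together in that library.

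**Figure D4:**
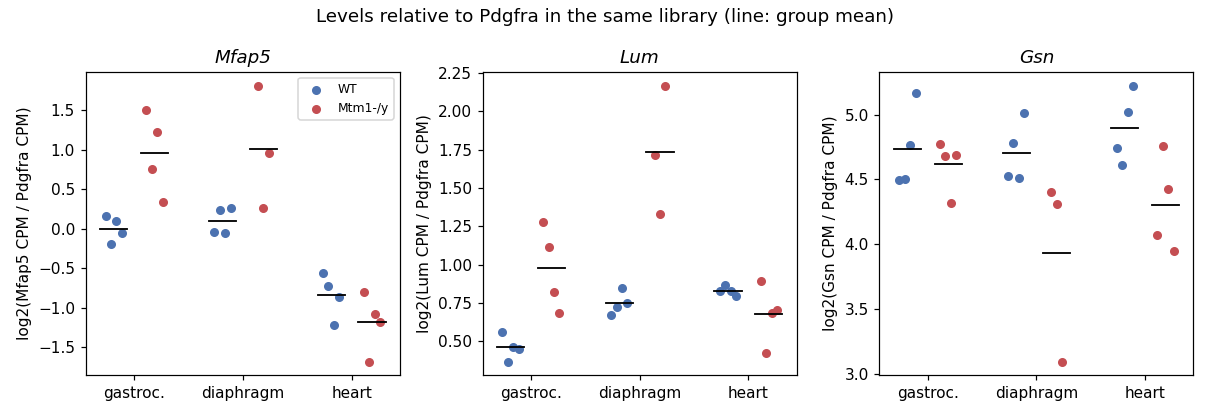
Log2 ratio of *Mfap5*, *Lum* and *Gsn* to *Pdgfra* in the same library, for WT (blue) and *Mtm1*-/y (red) gastrocnemius, diaphragm and heart, with lines at group means. *Lum* relative to *Pdgfra* is higher in all *Mtm1*-/y libraries of gastrocnemius and diaphragm, and in heart the groups overlap.

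Across WT tissues, the order of levels differed between the genes. Per kilobase of exon, *Gsn* was the most abundant in heart, at 646 ± 324 CPM per kb (SD, n = 4), followed by *Dcn* at 142 ± 45.7, *Dpt* at 99.0 ± 35.2 and *Lum* at 46.7 ± 13.7. *Tcf7l2* was the lowest in heart, at 1.25 ± 0.12 CPM per kb. The same 4 genes led in gastrocnemius, where *Gsn* was at 249.4 ± 35.4, *Dcn* at 79.7 ± 21.5, *Dpt* at 36.7 ± 4.55 and *Lum* at 16.6 ± 2.48 CPM per kb, and *Tcf7l2* was again the lowest, at 0.67 ± 0.087.

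All but *Mfap5* were higher in WT heart than in WT gastrocnemius, 8 of 9 genes against 32.6% of all 17725 tested by edgeR in the WT libraries, and none was lower, against 28.7%. *Lum* was 2.74-fold higher (adjusted p = 0.00019), *Dpt* 2.63-fold (adjusted p = 0.00020), *Gsn* 2.53-fold (adjusted p = 0.0022) and *Pdgfra* 2.13-fold (adjusted p = 0.00081). *Dpp4* (log2 0.79, adjusted p = 0.038) lost its call with a replicate block (0.081), with the 2 tissues fitted alone (0.057), without WT gastrocnemius 1 (0.090), 2 (0.081) or 4 (0.106), and without WT heart 4 (0.17). *Mfap5*, at 29.9 ± 6.07 CPM (SD, n = 4) in WT gastrocnemius, 40.05 ± 8.53 CPM in WT diaphragm and 35.9 ± 10.6 CPM in WT heart, did not pass in any of the 3 comparisons among these tissues.

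WT diaphragm was above WT gastrocnemius for *Lum*, *Dpt*, *Pi16*, *Dpp4* and *Tcf7l2*, with 30.6% of all genes tested in that direction, while *Pdgfra*, *Dcn*, *Gsn* and *Mfap5* did not pass. *Pi16* was 85.7 ± 23.8 CPM (SD, n = 4) in WT diaphragm and 36.9 ± 7.98 CPM (SD, n = 4) in WT gastrocnemius, without overlap (adjusted p = 0.0040 by edgeR). For *Lum* the call (log2 −0.62 for gastrocnemius minus diaphragm, adjusted p = 0.049 by edgeR) was lost by DESeq2 (0.056), with DESeq2 size factors (0.065), with no filter (0.053) and in 7 of the 15 fits without a single WT library, up to 0.13 without WT gastrocnemius 4. *Dpt* lost its call without WT gastrocnemius 2 (0.051). The *Dpp4* difference was the largest, with a log2 value of −2.43 (SE 0.31) for gastrocnemius minus diaphragm, and in diaphragm its level went with *Alb*. So did that of *Tcf7l2*, at 8.66, 8.96 and 9.56 CPM in WT diaphragm 1, 2 and 4, with high *Alb*. In WT diaphragm 3, with little *Alb*, *Tcf7l2* was at 6.83 CPM, inside the WT gastrocnemius range of 5.04 to 6.87 CPM. The part of liver RNA in these differences was not tested. WT heart was above WT diaphragm for *Pdgfra*, *Lum*, *Dpt*, *Gsn* and *Tcf7l2*, against 22.1% of all genes tested, and below it for *Dpp4*, against 29.6%. Without heart WT 4 none of these 5 higher calls remained, with adjusted p-values from 0.060 to 0.17 by edgeR. *Tcf7l2* (adjusted p = 0.044 by edgeR) also lost its call with no filter (0.068). The same held, among other fits, without any single WT diaphragm library (0.065 to 0.23) or any single WT heart library (0.059 to 0.14). *Dpt* (0.035) lost its call with the 2 tissues fitted alone (0.078) and in 5 of the 15 fits without a single WT library.

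Liver separated the genes into 2 kinds. *Dpp4* and *Tcf7l2* were higher in WT liver than in each other WT tissue, at 161 ± 12.96 and 21.7 ± 4.08 CPM (SD, n = 3), and the other 7 were lower. Of all genes tested, 40.8%, 42.1% and 40.6% were higher and 35.6%, 37.4% and 35.5% lower in WT heart, gastrocnemius and diaphragm than in liver. *Mfap5* had at most 0.19 CPM in WT liver and *Pi16* at most 1.04 CPM, while *Dcn* was still at 135 to 213 CPM. Between genotypes, 0 of the 8 genes with enough reads passed in liver by edgeR, none at an unadjusted p under 0.05 and none by DESeq2 (which gave no adjusted p for *Dpt* and *Gsn*), with 0% of the 14305 genes tested higher and 0% lower by edgeR, 1.69% and 2.54% at the unadjusted p, and 0.0299% and 0.12% by DESeq2.

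**Figure D5:**
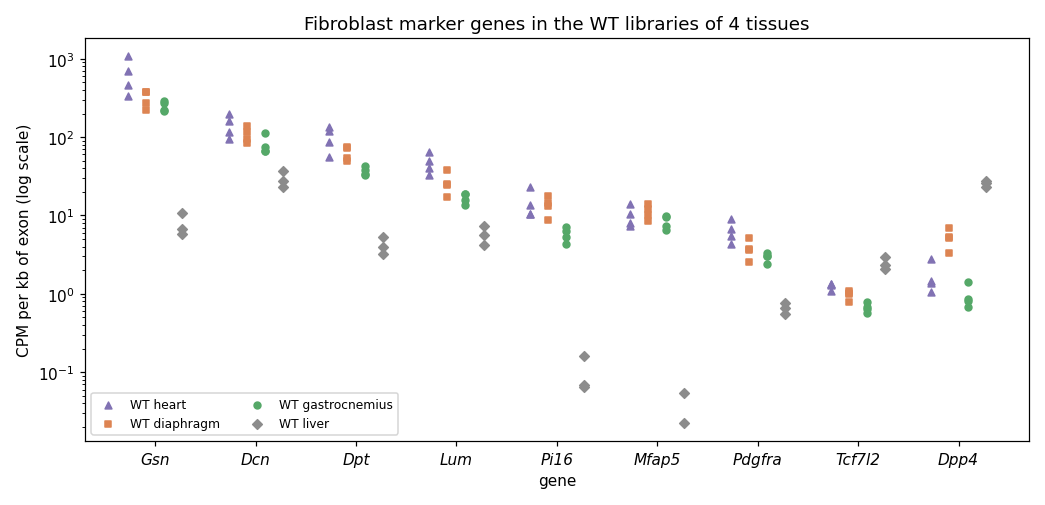
Levels of the 9 genes in each WT library, in CPM per kb of exon on a log axis, for heart, diaphragm, gastrocnemius and liver (libraries at 0 counts are not drawn). *Dpp4* and *Tcf7l2* are highest in liver and the other 7 lowest there, with *Mfap5* and *Pi16* furthest below their muscle levels.

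Over the 23 libraries of gastrocnemius, diaphragm and heart, the markers varied together to unequal degrees. Pearson's r of a gene with the mean of the other 8, on standardised log2(CPM + 1), was 0.93 for *Dpt*, 0.86 for *Dcn*, 0.85 for *Pi16*, 0.84 for *Lum* and 0.81 for *Pdgfra*. It was 0.47 for *Gsn*, 0.43 for *Tcf7l2*, 0.36 for *Dpp4* and 0.23 for *Mfap5*. These points share tissue, genotype and library, so the values describe this set only. After removal of the 6 group means, r was highest for *Pdgfra*, at 0.88, and was −0.25 for *Tcf7l2*. The genes outside the list whose levels followed the mean of the 9 most closely were *Ccdc80* (r = 0.95), *Rcn1* (0.94), *Bicc1* (0.93), *Smo* (0.93) and *Fam114a1* (0.92), over the 23 libraries.

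Other genes of fibroblasts and of the pathways of the 9 were counted in the *Mtm1*-/y gastrocnemius. They came from lists of known markers that were chosen with earlier results of these data known. Of all genes tested there, 14.1% were higher and 14.9% lower. Of 21 general fibroblast genes, 11 rose, 10 did not pass and none fell. Those that rose included *Vim*, which encodes the intermediate filament vimentin (147 ± 20.03 CPM in WT, 238 ± 10.6 CPM in *Mtm1*-/y, n = 4 each). Others were *Loxl1*, an enzyme of elastin crosslinking (log2 1.04), and *Fstl1* (log2 0.87). Of 15 genes of activated fibroblasts, 10 rose and none fell, with a median log2 fold change of 1.31. *Postn*, the matricellular protein periostin, went from 39.9 ± 18.7 to 295 ± 93.8 CPM (SD, n = 4 each, adjusted p = 0.00042 by edgeR), and *Cilp*, a matrix protein of cartilage and fibrotic tissue, from 44.8 ± 17.2 to 509 ± 140 CPM (adjusted p = 9.5e-05). Both had far larger changes than any of the 9 markers.

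By role, *Lum* and *Dcn* belong to the small leucine-rich proteoglycans, of whose 9 other members tested 3 rose in gastrocnemius (*Bgn*, log2 1.25, *Aspn*, log2 1.15, and *Tsku*, log2 0.96) and none fell. Of 18 microfibril and elastic fibre genes, the group of *Mfap5*, 8 rose, including the latent TGFβ-binding proteins *Ltbp2* (log2 3.19) and *Ltbp1* (log2 0.82), and 1 fell. Of 6 other platelet-derived growth factor ligands and receptors, 1 rose, *Pdgfrl* (log2 1.06), a receptor-like protein. Of 6 TCF/LEF factors and Wnt targets tested, none passed. Of 7 dipeptidyl peptidase family members 2 rose and 3 fell, and of 6 gelsolin family members 2 rose and 2 fell. The shares of all genes tested were 14.1% higher and 14.9% lower, and 1 of 6 growth factor genes was near the first.

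For the fibroblast subsets, the counts stand against 14.1% of all genes tested higher and 14.9% lower. Of 12 adventitial fibroblast genes, 3 rose, including *Cd55* (log2 0.77) and *Cd248* (log2 0.60), and 3 fell, including *Ackr3* (log2 −0.56) and *Anxa3* (log2 −0.36), with a median of 0.058. Of 11 interstitial genes, *Podn* rose (log2 0.76) and *Hsd11b1* (log2 −0.53) and *Cxcl14* (log2 −0.32) fell, with a median of 0.085. The interstitial counts were near the shares of all genes tested.

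Markers of other cell types were counted as well in the *Mtm1*-/y gastrocnemius, where 14.1% of all genes tested were higher and 14.9% lower. The counts for tenocyte and hepatocyte markers were near these shares. Of 12 macrophage markers 11 rose, with a summed level of 64.3 to 113 CPM in WT and 191 to 231 CPM in *Mtm1*-/y libraries. Of 9 white adipocyte markers 6 rose, of 7 tenocyte markers 1 rose, and of 3 mesothelial markers tested 1 rose. Of 8 myofibre markers 7 fell and 1 rose, and their sum was 201967 to 240862 CPM in WT and 127167 to 136369 CPM in *Mtm1*-/y libraries. Of 10 endothelial markers 4 fell, of 9 smooth muscle and pericyte markers 4 fell and 1 rose, of 6 satellite cell markers 3 fell, and of 8 Schwann cell markers none passed. Of 11 hepatocyte markers 1 rose and 1 fell, and of 5 cardiomyocyte markers 2 rose and 1 fell. CPM are shares of all reads, and the part of the lower myofibre share in the 6 rises was not tested.

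In diaphragm and heart no gene of any of these lists passed edgeR's test. By DESeq2, with the listed genes as the total, the *Mtm1*-/y diaphragm had 7 of 15 activated fibroblast genes, 5 of 21 general fibroblast genes, 7 of 18 microfibril genes, 2 of 12 proteoglycans, 1 of 6 platelet-derived growth factor genes, 2 of 7 tenocyte markers and 1 of 8 cardiomyocyte markers higher, and 2 of 6 satellite cell and 1 of 10 endothelial markers lower, against 1.72% and 0.675% of all its genes. The log2 fold change for *Postn* was 3.71 (SE 0.62, adjusted p = 0.26 by edgeR) in diaphragm and −0.76 (SE 0.34, adjusted p = 0.55) in heart. The medians of the general and activated fibroblast lists were 0.39 and 1.33 in diaphragm and −0.43 and −0.54 in heart. In *Mtm1*-/y heart, DESeq2 called 6 of 9 white adipocyte markers, 2 of 12 proteoglycans, 1 of 18 microfibril genes and 1 of 12 macrophage markers lower, and 1 of 12 hepatocyte markers each way, against 0.359% of all its genes lower and 0.102% higher.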

How the data were processed

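Poly(A) RNA of 30 libraries, each from a separate mouse within its group, was sequenced single-end from stranded libraries. Per the labels and the study's methods, the authors demultiplexed with bcl2fastq 2.17.1.14, trimmed with cutadapt 1.10, aligned to mm10 with STAR 2.5.3a and counted uniquely aligned, non-ambiguous reads per Ensembl gene with HTSeq 0.6.1p1. The deposited values are raw counts, and all 30 columns were used. Reads shared by overlapping genes are lost by this counting. The exons of *Pdgfra*, *Pi16* and *Dpp4* overlap other annotated genes, none with more than 14 reads over all libraries.

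From the counts, genotypes were compared in each tissue with edgeR 4.0.16 (quasi-likelihood test, trimmed mean of M values, filterByExpr with a count minimum of 10), in R 4.3.3. P-values were adjusted over all genes tested. DESeq2 1.42.0, its size factors, no filter, a fit of all 30 libraries, a replicate block and leaving out each library were alternatives. Tissues of 1 genotype may come from the same mice, which the labels do not tie together. The 9 genes and the gene lists were chosen with earlier results of these data known. From each list, the text names at most 4 genes that passed in a tissue, those of lowest p, and otherwise the 2 of highest level; *Postn* in heart was chosen after its values were seen. Genes most like the 9 were the 5 with the highest r to their mean.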

Additional observations from a re-analysis of the deposited data

Results flagged for a closer look

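In gastrocnemius and heart, the effect of genotype differed for 4 of the 9 genes by an interaction term, with log2 differences (heart minus gastrocnemius) of −2.001 for *Mfap5*, −1.39 for *Lum*, −1.28 for *Pi16* and −1.01 for *Dpt*.

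In 7 of the 54 cases tested (a gene in a group of 4), 1 library stood apart from the other 3 of its group of 4 by a gap that was large for the group's range, where chance gives about 1 in 20 groups. *Tcf7l2* in *Mtm1*-/y gastrocnemius 1 was low, at 6.49 CPM against 7.91 to 8.14 CPM in the others. In *Mtm1*-/y heart, *Pdgfra* was high in replicate 2, at 61.9 CPM against 50.2 to 52.0 CPM. *Lum* was high in *Mtm1*-/y heart 1, at 96.4 CPM against 80.8 to 83.0 CPM, and so was *Dpt*, at 130.4 CPM against 109 to 110.3 CPM. In *Mtm1*-/y liver 3, 3 of the 9 genes stood apart together: *Lum* at 23.3 CPM against 9.16 to 11.3 CPM, *Dpt* at 28.4 CPM against 2.04 to 4.23 CPM, and *Gsn* at 71.3 CPM against 10.8 to 15.1 CPM.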

How the results depend on the processing

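In gastrocnemius the count of 6 called genes was 1 with an absolute log2 fold change over 1 and 2 with all 30 libraries in one fit, and ran from 2 to 6 without single libraries. In diaphragm the count of 0 was 2 by DESeq2, 1 with all 30 libraries in one fit, and 0 to 1 without single libraries. DESeq2's count in diaphragm ran from 1 to 3 without single libraries, and in heart from 0 to 3. For heart minus diaphragm the count of 0 was 2 by DESeq2 and 0 to 2 without single libraries. The median of the 9 genes in heart ran from −0.72 to −0.22 without single libraries. For the fits without single libraries and the fit of all 30, the share of all genes that passed was not counted.

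Some values near 0 changed sign. *Tcf7l2* in diaphragm was 0.0060 with DESeq2 size factors, 0.0085 with no filter, 0.0017 by DESeq2 and 0.077 with *Alb* as a covariate. For gastrocnemius minus diaphragm, *Dpp4* was −0.013 with DESeq2 size factors and −0.015 by DESeq2. Without single libraries, log2 values ran from −0.26 to 0.14 for *Dpp4* in gastrocnemius, −0.75 to 0.12 for *Dpp4* and −0.21 to 0.093 for *Tcf7l2* in diaphragm, −0.024 to 0.073 for *Tcf7l2* in heart, and −0.29 to 0.23 for *Pi16* in WT heart minus diaphragm. For the genotype effect in heart minus diaphragm they ran from −0.036 to 0.26 for *Tcf7l2* and −0.76 to 0.18 for *Dpp4*. In gastrocnemius minus diaphragm they ran from −0.22 to 0.63 for *Dpp4*, −0.20 to 0.12 for *Pi16*, −0.43 to 0.38 for *Mfap5*, −0.11 to 0.22 for *Pdgfra*, −0.31 to 0.00036 for *Dpt*, −0.44 to 0.065 for *Dcn* and −0.19 to 0.083 for the median. The cause was not tested.

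Same-numbered WT and *Mtm1*-/y libraries had correlations of 0.011 to 0.11 in gastrocnemius, −0.81 to 0.65 in diaphragm and −0.62 to 0.36 in heart, so the numbers were not taken to pair genotypes. Between tissues of 1 genotype they were −0.24 to 0.35, and 21 of 42 were best with their own number. Each was matched among the 3 or 4 libraries of the other group, so chance would give about 1 in 3 or 1 in 4. The 21 of 42 were above that rate. In 0 of 16 pairs of groups was every correlation over 0.1, and whether tissues share mice is not settled by these values. With a replicate block the count in gastrocnemius was 4, in diaphragm 0 and in heart 0, and for gastrocnemius minus diaphragm the median was 0.043, *Pi16* 0.053 and *Mfap5* 0.027. Among the alternatives that kept all libraries, the block left out, 291 values of single genes kept their direction and side of the threshold, 11 lost a call, 6 gained one and 6 changed sign. The diaphragm comparison had 3 *Mtm1*-/y libraries and a biological coefficient of variation of 0.394, against 0.171 in gastrocnemius and 0.208 in heart.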
